A study of Mus musculus with 12 samples.

Results

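Glycolytic enzymes were described through 10 genes chosen by name: Hk1, Hk2, Gpi1, Pfkl, Pfkp, Aldoa, Tpi1, Pgk1, Eno1 and Pkm. All 10 were among the 24982 gene symbols of the deposited files. The RNA came from splenic B lymphocytes of mice aged 6 weeks, in 3 groups of 4 libraries labelled as biological replicates: WT, Eμ-Myc, and Eμ-Myc; PRPS2 KO, called the knockout group here. The knockout group carries the Eμ-Myc transgene as well, and no PRPS2 knockout without the transgene is among these samples. Eμ-Myc is a transgene in which the immunoglobulin heavy-chain enhancer drives Myc in the B lineage. The labels do not say whether the deletion of Prps2 is limited to B cells, nor which strain or sex the mice had. PRPS2 makes phosphoribosyl pyrophosphate, the ribose donor of nucleotide synthesis, from ribose 5-phosphate, which is itself formed from an intermediate of glycolysis.

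Glycolysis converts glucose to pyruvate. Hexokinase traps glucose in the cell, phosphofructokinase commits it to the pathway, aldolase splits the sugar, triose phosphate isomerase interconverts the resulting triose phosphates, and the later enzymes harvest ATP and end in pyruvate kinase. MYC is a transcription factor that binds E-boxes and is known to raise transcription of many of these genes in proliferating lymphocytes. Hexokinase 1 is the common form of resting cells, and hexokinase 2 is the inducible form of many growing and transformed cells.

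Values are taken as the mean coverage of each gene per base, a unit inferred from the values themselves. They were scaled between libraries and are stated with the SD of 4 libraries. How many reads lie behind a value is unknown. Sums of coverage ran from 1277305.5 to 1885768.9 per library. The labels were checked first. In WT Prps2 averaged 125 ± 19.8, against 246 ± 36.5 in Eμ-Myc and 17.1 ± 0.857 once it was knocked out, and Myc averaged 272 ± 52.8, 1915 ± 311 and 2279 ± 1042 in the same order. The labelled cell type was checked against 8 B-cell markers, all of which were above 1 in every library, with summed levels from 6545 to 12817 in WT and from 7188 to 9543 in the other libraries. Markers of other cells were also present, and none of the 8 T-cell, 6 NK-cell and 9 myeloid markers was at 0 in any library. The summed T-cell markers ranged from 606 to 3093 in WT and from 145 to 200.04 in Eμ-Myc, and the knockout libraries 1 to 4 held 671, 773, 56.2 and 57.2. For the myeloid list the ranges were 8159 to 24668 in WT and 5759 to 16907 in Eμ-Myc, with 15473, 11525, 3034 and 1322 in the knockout libraries. The knockout libraries thus stood in pairs, 1 and 2 apart from 3 and 4, and both comparisons with the knockout group are also given below with each pair left out.

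Promoter sequence is shown for the hexokinase genes, which went in opposite directions in Eμ-Myc, and for Pgk1, which has a single window and a textbook hypoxia-responsive promoter. The windows come from RefSeq on GRCm38.p6, which matches the mm10 build of the submitters' processing notes. All 10 genes matched, with 16 windows of 300 bases (250 before to 50 after a start). The letters CACGTG, the canonical E-box, stood in 0 of the 16 windows and in 7.15% of all 32851 promoter windows. ACGTG, searched as ACGTG and its reverse complement CACGT, is the core of the hypoxia response element and is also part of CACGTG. It stood in 6 windows of 5 genes (Hk1, Hk2, Aldoa, Pgk1 and Pkm), against 19.6% of all windows and 21.8% of all genes with windows. GCGTG or its reverse complement CACGC stood in 6 windows of 4 genes (Hk1, Pfkl, Pfkp and Eno1), against 32.4% of windows. Of all genes with windows 35.2% held it, close to the members' share. Windows of the same gene can overlap, so the same site can count in several windows, as in Aldoa for ACGTG and in Eno1 for GCGTG. The sequences below are the 250 bases before a start, 5′ to 3′ on the gene's strand, with ACGTG or CACGT in capitals. Hk2 (chr6:82774455-82774704, minus strand) holds CACGT at 226 and 52 bases before the start, and Pgk1 (chrX:106186850-106187099, plus strand) holds a match on each strand. Hk1 (chr10:62379909-62380158, minus strand) is shown at its outermost start and holds no match there, while its inner start has matches just after the start site. Nothing was measured at these promoters, so a match is only a description of the letters.
Hk2: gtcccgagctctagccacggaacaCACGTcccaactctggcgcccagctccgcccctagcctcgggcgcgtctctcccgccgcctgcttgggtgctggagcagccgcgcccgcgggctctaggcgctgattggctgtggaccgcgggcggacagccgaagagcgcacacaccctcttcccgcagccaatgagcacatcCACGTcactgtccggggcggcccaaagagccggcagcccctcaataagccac
Hk1: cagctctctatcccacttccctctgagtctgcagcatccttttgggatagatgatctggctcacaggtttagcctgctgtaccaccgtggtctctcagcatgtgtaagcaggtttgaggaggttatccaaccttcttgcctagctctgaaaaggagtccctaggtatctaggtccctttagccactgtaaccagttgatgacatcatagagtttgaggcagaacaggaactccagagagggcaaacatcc
Pgk1: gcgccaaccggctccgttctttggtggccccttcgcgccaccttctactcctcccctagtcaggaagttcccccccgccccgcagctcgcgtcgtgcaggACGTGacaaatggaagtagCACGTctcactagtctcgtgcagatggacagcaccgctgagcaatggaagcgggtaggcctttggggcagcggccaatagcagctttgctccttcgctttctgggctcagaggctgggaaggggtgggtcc

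If the values are coverage per base, as inferred, the members can be ordered within a group. This holds as far as each gene's annotated length fits its transcripts in these cells. In WT the highest was Aldoa (1581 ± 298), followed by Pkm (961 ± 295), Eno1 (329.6 ± 66.0) and Gpi1 (326 ± 78.7), and Hk2 was the lowest (14.0 ± 5.98). Eno1 and Gpi1 did not differ beyond their spread. Below them came Tpi1 (142 ± 22.8), whose WT libraries overlapped neither those of Gpi1 above nor those of Hk1 (91.7 ± 14.2) below. Hk1 was followed by Pgk1 (86.5 ± 23.8), Pfkp (81.0 ± 10.98) and Pfkl (67.6 ± 5.61). From Hk1 to Pfkl each gene overlapped the next in the order, but the WT libraries of Hk1 were all above those of Pfkl. In Eμ-Myc the top was Pkm (1428 ± 122), with Aldoa (1285 ± 233) overlapping it. Ranked from the highest, Tpi1 stood at place 5 of the 10 members in WT and 4 in Eμ-Myc, Pgk1 moved from 7 to 6, and Hk1 moved from 6 to 9. Among all genes of the files, Tpi1 ranked 2083 by its mean in WT and 647 in Eμ-Myc, and Hk1 ranked 3115 and 5365.

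**Figure D1:**
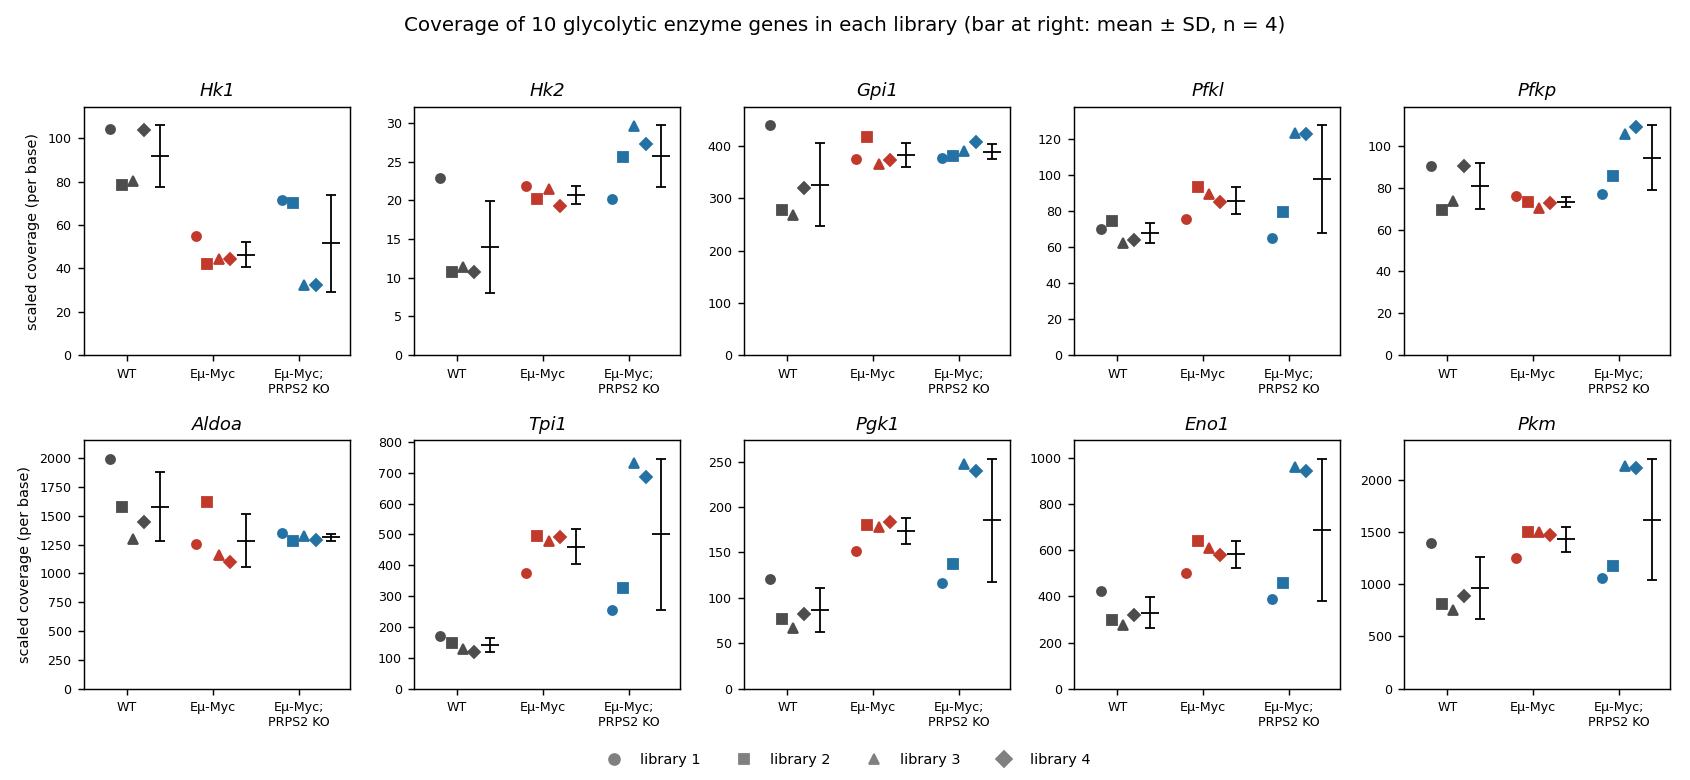
Scaled coverage (per base, linear axes from 0) of the 10 genes in each of 4 libraries per group; symbols mark the library number and bars the mean ± SD. Tpi1, Pgk1 and Eno1 are higher in every Eμ-Myc library than in any WT library, Hk1 is lower, and the knockout libraries of most genes split into 1 and 2 against 3 and 4.

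The first comparison asked how the enzymes differ between Eμ-Myc and WT B cells. In Eμ-Myc the genes of the later steps of the pathway were higher: Tpi1 by 3.24-fold, Pgk1 by 2.04-fold, Eno1 by 1.78-fold and Pkm by 1.53-fold. In the upper part, Hk2 (1.54-fold) and Pfkl (1.26-fold) rose, Hk1 fell to 0.510 of its WT level, and Gpi1, Pfkp and Aldoa did not pass the test. Thus 7 of 10 members passed limma at a Benjamini-Hochberg adjusted p under 0.05, 6 higher and 1 lower. Over all 12723 genes tested, 55.1% passed, 30.4% as higher and 24.7% as lower. The median log2 fold change was 0.48 over the members and -0.01 over all genes tested. The libraries of both groups did not overlap for 5 members, 4 of them higher, beside 51.4% of all genes tested, 28.7% as higher and 22.8% as lower.

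Hexokinase adds phosphate to glucose, the entry step. Hk1 (chr10:62268855-62379908) held 104, 78.6, 80.1 and 104 in WT libraries 1 to 4 and 54.9, 41.9, 44.3 and 44.3 in Eμ-Myc. Every Eμ-Myc library was below every WT library, and limma gave a log2 fold change of -0.97 (SE 0.14, adjusted p 0.00031). Hk2 (chr6:82725025-82774454) held 22.9, 10.8, 11.4 and 10.7 in WT and 21.8, 20.2, 21.5 and 19.3 in Eμ-Myc. WT library 1 was above all the Eμ-Myc libraries and the other three were below them. The log2 fold change of Hk2 was 0.63 (SE 0.23, limma adjusted p 0.045), and this call was lost, with adjusted p from 0.070 to 0.107, when any library other than WT 1 was left out. Leaving out WT 1 gave 0.88 (adjusted p 0.00054). The call also ended under median-of-ratios scaling, total coverage scaling and no filter on low values (limma adjusted p 0.065, 0.124 and 0.058). Hk3, a hexokinase abundant in myeloid cells, held 429.7, 89.9, 98.5 and 137 in WT and 124, 159, 82.3 and 50.0 in Eμ-Myc, and did not pass (log2 fold change -0.67, limma adjusted p 0.31). WT library 1, the highest for Hk2 and Hk3, also had the highest myeloid marker sum (24668), whose part in these values was not tested.

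The ratio of Hk2 to Hk1 within a library needs no scaling between libraries. It was 0.220, 0.137, 0.142 and 0.103 in WT, and 0.398, 0.482, 0.485 and 0.435 in Eμ-Myc. Every Eμ-Myc library was above every WT library, and the means were 0.151 ± 0.0494 and 0.450 ± 0.0413. The difference in mean log2 ratio was 1.60, with an exact two-sided permutation p of 0.0286, the smallest that 4 against 4 allows. Adjusted over the 6 ratio tests it was 0.0857, so it did not pass. The smallest p passes this adjustment only if most of the 6 tests reach it, so not passing says little here. Such a ratio shows an unequal change of both genes and not which of them changed.

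Glucose-6-phosphate isomerase, encoded by Gpi1 (chr7:34201330-34230336), makes the fructose 6-phosphate used by the next enzyme. WT libraries held 439.6, 278, 269 and 319.8, and Eμ-Myc libraries held 375, 417, 367 and 374. WT library 1 was above all the Eμ-Myc libraries, and the groups overlapped. The log2 fold change of Gpi1 was 0.26 (SE 0.15, limma adjusted p 0.18). Without WT library 1 it was 0.41 and passed (adjusted p 0.012). Gpi1 also passed with limma's library quality weights (0.35, adjusted p 0.012). It passed too with the 2 libraries per group lowest in T-cell, NK-cell and myeloid markers, a fit added later (0.44, limma adjusted p 0.0042).

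Phosphofructokinase is the main control point of the pathway and works as a tetramer of liver-type (Pfkl), platelet-type (Pfkp) and muscle-type (Pfkm) subunits. Pfkl (chr10:77986947-78010083) held 70.2, 74.3, 62.2 and 63.7 in WT and 75.5, 93.2, 89.3 and 84.7 in Eμ-Myc. The groups did not overlap, by a narrow gap, and the log2 fold change was 0.34 (SE 0.10, limma adjusted p 0.021). Leaving out WT library 3, Eμ-Myc library 3 or Eμ-Myc library 4 lost this call (adjusted p 0.062, 0.063 and 0.0503). It was lost as well under total coverage scaling, where the log2 fold change was 0.16 (limma adjusted p 0.162), and with all 12 libraries in 1 fit (0.165). Pfkp (chr13:6579768-6648777) held 90.6, 69.4, 73.8 and 90.1 in WT and 75.9, 73.1, 70.2 and 72.7 in Eμ-Myc, within the WT range, and the log2 fold change was -0.14 (SE 0.11, limma adjusted p 0.31). Pfkm, outside the 10 members, rose from 26.6 ± 11.3 to 55.5 ± 3.84, with a log2 fold change of 1.14 (limma adjusted p 0.0058). The ratio of Pfkp to Pfkl averaged 1.21 ± 0.204 in WT and 0.859 ± 0.104 in Eμ-Myc (exact permutation p 0.0571, adjusted 0.114) and did not pass.

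Aldolase A, encoded by Aldoa (chr7:126795234-126800751, with a second annotated entry under the same symbol next to it), cleaves fructose 1,6-bisphosphate. It held 1995, 1577, 1301 and 1451 in WT and 1258, 1621, 1163 and 1100.1 in Eμ-Myc. Eμ-Myc library 2 lay above 3 of the WT libraries, and the others lay below the WT range. The log2 fold change was -0.30 (SE 0.16, limma adjusted p 0.15). Without Eμ-Myc library 2 it was -0.41 and passed (adjusted p 0.045). Aldoa also passed with limma's library quality weights (-0.33, adjusted p 0.026) and with the added pair of libraries per group (-0.34, limma adjusted p 0.034).

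Triose phosphate isomerase, encoded by Tpi1 (chr6:124810586-124814296), had the largest difference of the 10 members. It held 172, 148, 129.5 and 120.2 in WT and 376, 496, 478 and 492 in Eμ-Myc. The lowest Eμ-Myc library was well above the highest WT library, and the log2 fold change was 1.69 (SE 0.14, limma adjusted p 1.44e-05). Gapdh, the next enzyme and often used as a reference gene, was itself higher in Eμ-Myc, from 899 ± 209 to 1719 ± 175 (log2 fold change 0.96, limma adjusted p 0.00077). Processed pseudogenes of Gapdh and of several other genes of the pathway exist in the mouse, and how reads shared with such copies were assigned is not given in the sources used here.

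Phosphoglycerate kinase, which makes the first ATP of the pathway, is encoded by Pgk1 (chrX:106187100-106203699). WT libraries held 121, 76.3, 66.8 and 82.0, and Eμ-Myc libraries held 152, 181, 177 and 183. The groups did not overlap, and the log2 fold change was 1.03 (SE 0.17, limma adjusted p 0.00083). Pgam1, the phosphoglycerate mutase that follows, rose from 26.1 ± 7.47 to 56.3 ± 3.55 (log2 fold change 1.13, limma adjusted p 0.00055).

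Enolase 1, encoded by Eno1 (chr4:150236721-150248879), makes phosphoenolpyruvate. It held 425, 299.8, 276 and 317 in WT and 504, 639, 609 and 579 in Eμ-Myc, without overlap, and the log2 fold change was 0.84 (SE 0.14, limma adjusted p 0.0011). The near-identical copy Eno1b had from 0.516 to 0.518 of the Eno1 coverage in every library, so the values of both are uncertain as levels of separate genes. Pyruvate kinase M, encoded by Pkm (chr9:59656368-59679375), carries out the last step, and its isoforms M1 and M2 share 1 row in these files. Pkm held 1396, 810.5, 750.0 and 887 in WT and 1245, 1495, 1497 and 1473 in Eμ-Myc. WT library 1 lay within the Eμ-Myc range and the other WT libraries below it, and the log2 fold change was 0.61 (SE 0.18, limma adjusted p 0.019). Leaving out WT library 2 or 3 ended the call of Pkm (adjusted p 0.0501 and 0.0522), and so did fitting all 12 libraries together (limma adjusted p 0.073).

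The count of 7 members rested partly on single libraries: without WT library 3 it was 4 (Hk1, Eno1, Tpi1 and Pgk1), beside 49% of all genes in place of 55.1%, and these 4 passed in each of the 8 fits that left out 1 library. Scaling by total coverage moved the median of all genes from -0.01 to -0.19. It then called 4 members higher and 3 lower, with Pfkp and Aldoa among the lower ones, and calls in the higher direction made up 42.0% of all calls in place of 55.2%. All 8 T-cell and all 6 NK-cell markers tested also fell in Eμ-Myc against WT, with median log2 fold changes of -2.98 and -2.11. Of the other marker lists, 1 of 4 platelet, 2 of 5 plasma-cell and 1 of 8 B-cell markers fell, and no myeloid or erythroid marker passed. Their part in the members' differences was not tested. In bulk RNA, fewer cells of a type and less RNA per cell cannot be told apart. A fit added after the data were seen used only the pair of libraries per group with the lowest T-cell, NK-cell and myeloid markers, and called 9 members, 7 higher and 2 lower, beside 65.2% of genes.

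**Figure D2:**
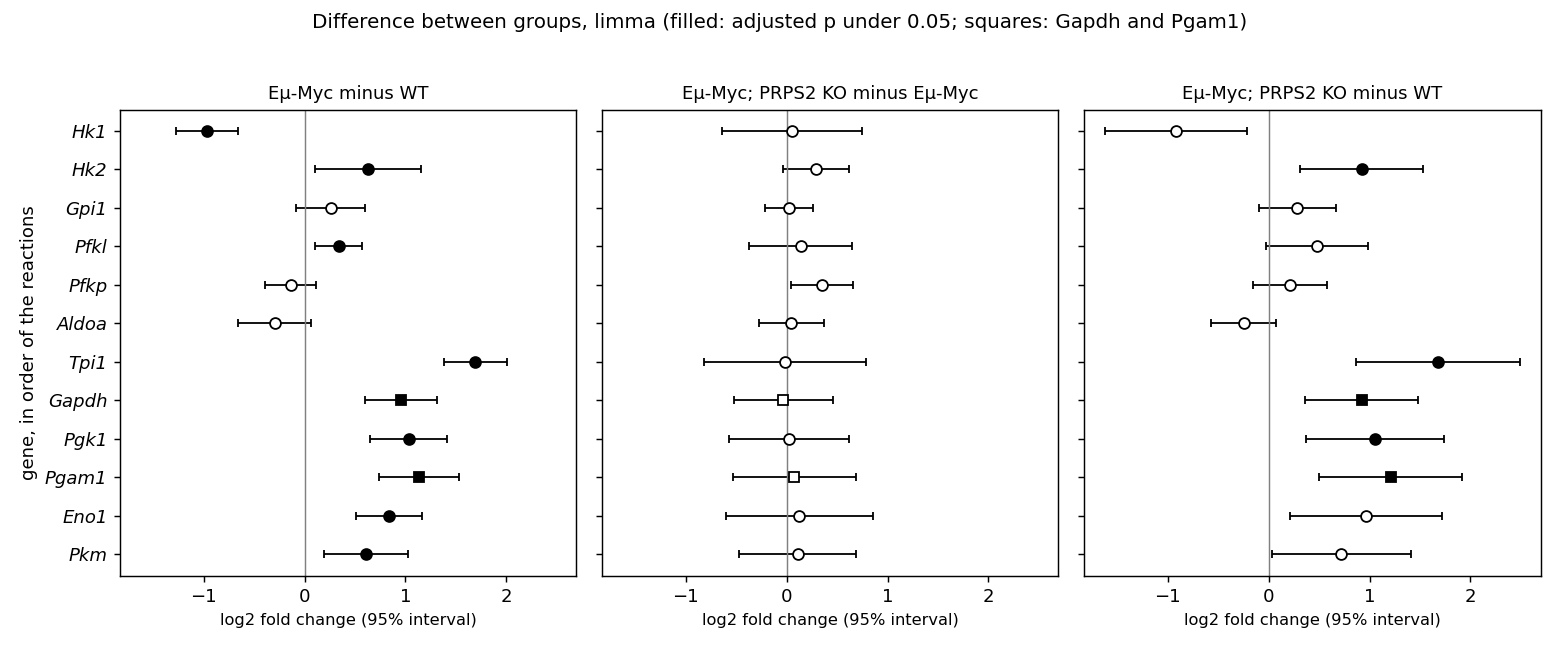
Log2 fold change with its 95% interval (limma) in each of the 3 comparisons, for the 10 members (circles) and Gapdh and Pgam1 (squares), in the order of the reactions; filled symbols passed at an adjusted p under 0.05. In Eμ-Myc minus WT the symbols from Tpi1 to Pkm all lie above 0 and are filled, and in the knockout group minus Eμ-Myc none is filled.

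The second comparison asked what loss of PRPS2 changed in Eμ-Myc B cells. None of the 10 members passed limma, and neither did any of the 57 genes tested from the other lists. Prps2 itself was the one gene called among 12551, which is 0.00797% of the genes tested. At an unadjusted p under 0.05 there was 1 member, Pfkp, beside 0.964% of all genes. The 95% intervals were wide: for Tpi1 the log2 fold change was -0.02 with an interval from -0.82 to 0.79, and for Hk1 it was 0.05 with an interval from -0.64 to 0.74. These intervals leave room for changes as large as many of those between Eμ-Myc and WT. For Gpi1 (0.03, from -0.21 to 0.26) and Aldoa (0.05, from -0.27 to 0.37) they were narrower.

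Pfkp held 77.1, 85.7, 105 and 109 in the knockout libraries, all above the highest Eμ-Myc library (75.9). It was the only member whose groups did not overlap, beside 1.53% of all genes tested (0.765% as higher). Its log2 fold change was 0.35 (SE 0.13, unadjusted p 0.029 and adjusted p 1.00 in limma), so it did not pass. The other phosphofructokinase member, Pfkl, held 65.1, 79.5, 123 and 123, with library 1 below the Eμ-Myc range, library 2 within it and the others above it. The Pfkp to Pfkl ratio in the knockout group was 1.00 ± 0.156, against 0.859 ± 0.104 in Eμ-Myc (exact permutation p 0.20, adjusted 0.24).

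The wide intervals went with a split within the knockout group. Tpi1 held 254, 326, 733 and 687 in knockout libraries 1 to 4, so libraries 1 and 2 were below the whole Eμ-Myc range and libraries 3 and 4 above it. The same order held for Pgk1 (117, 138, 247 and 240.1), for Eno1 (387, 458, 964 and 945) and for Pkm (1059, 1170.0, 2129.7 and 2107). In each of these genes both lower libraries were below every Eμ-Myc library. Hk1 went the other way, with 71.6 and 70.1 in libraries 1 and 2 and 32.3 and 32.2 in libraries 3 and 4. Hk2 held 20.2, 25.6, 29.6 and 27.3, with libraries 2 to 4 above the Eμ-Myc range.

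Gpi1 (378, 381, 391 and 408) and Aldoa (1352, 1281, 1328 and 1293) showed no such split, and all their knockout libraries lay within the Eμ-Myc range. Counted over the members, knockout libraries 1 and 2 had 5 and 4 members below the Eμ-Myc range and 2 and 3 above it. Of all genes tested, 37.4% and 30.2% were below the range in these libraries and 32.4% and 28.8% above it. Libraries 3 and 4 each had 7 members above it and 1, Hk1, below, beside 37.5% and 36.8% of all genes above and 32.3% and 31.7% below. The SD of log2 values had a median over the members of 0.50 in the knockout group, 0.13 in Eμ-Myc and 0.27 in WT, beside 0.39, 0.21 and 0.22 over all genes tested. It was larger in the knockout group than in Eμ-Myc for 8 of 10 members, a share close to the 75.6% of all genes tested for which this held.

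**Figure D3:**
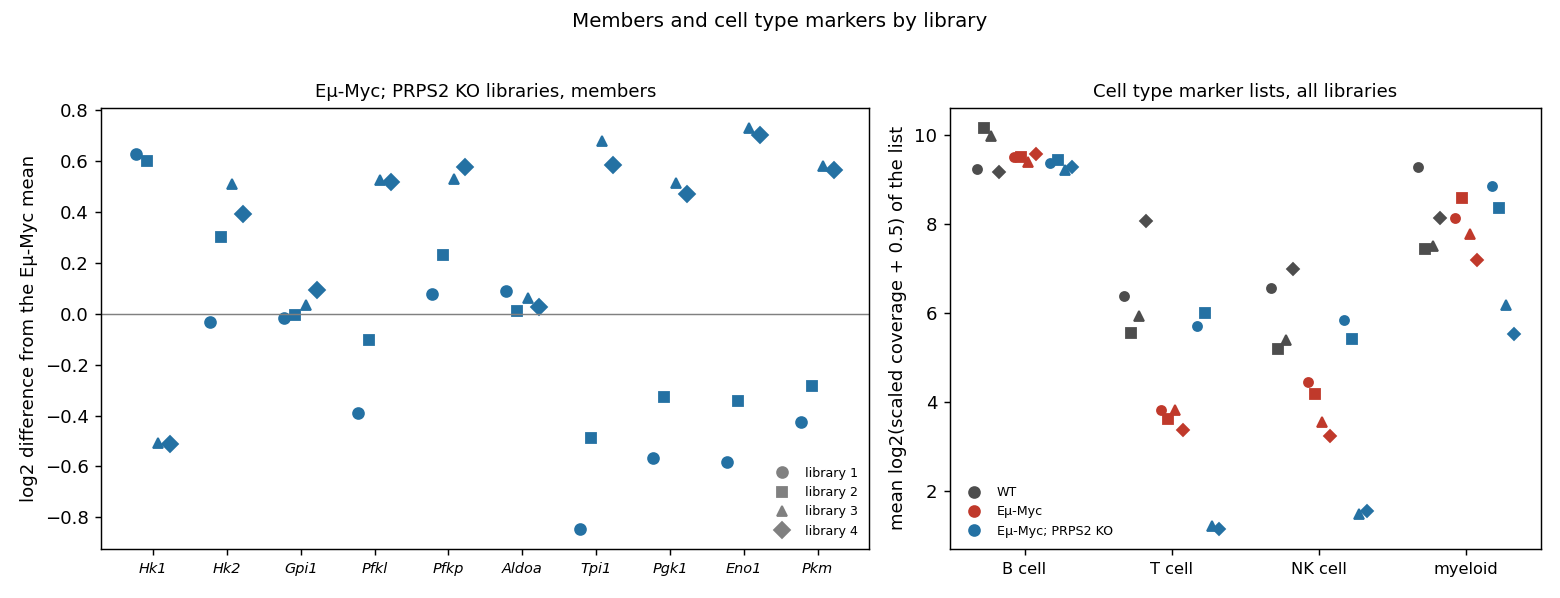
Left, log2 difference of each knockout library from the Eμ-Myc mean for the 10 members; right, mean log2(scaled coverage + 0.5) of the B-cell, T-cell, NK-cell and myeloid marker lists in all 12 libraries. Knockout libraries 3 and 4 (triangles and diamonds) are the highest for Tpi1, Pgk1, Eno1 and Pkm, the lowest for Hk1, and the lowest of all libraries for the T-cell, NK-cell and myeloid lists.

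Markers of T cells, NK cells and myeloid cells moved with this split. The mean log2 level of the 23 T-cell, NK-cell and myeloid markers was 6.97 and 6.77 in knockout libraries 1 and 2, 3.22 and 2.96 in libraries 3 and 4, and from 4.82 to 5.70 in Eμ-Myc. The plasma-cell markers had summed levels of 492, 594, 245 and 274 in knockout libraries 1 to 4 and from 502 to 579 in Eμ-Myc, but they did not all split alike. Jchain, the joining chain of secreted antibodies, held 184, 234, 2.00 and 2.44, and Xbp1 and Prdm1 were also lower in libraries 3 and 4, while Sdc1 (6.80, 7.78, 12.3 and 10.1) and Irf4 (113, 136, 139 and 168) were higher there. Myc moved as well, with 1099, 1718, 3017 and 3282 in the knockout libraries and from 1559 to 2302 in Eμ-Myc. Platelet markers did not follow the split, with summed levels of 127, 32.3, 33.5 and 38.7 in knockout libraries 1 to 4. Of 4 platelet markers tested against Eμ-Myc, all were lower, 3 had an unadjusted limma p under 0.05 and none passed after adjustment. Erythroid markers ran the other way, with mean log2 levels of 2.42, 2.57, 3.27 and 3.46, and from 2.25 to 4.75 in Eμ-Myc. The part of these markers or of Myc in the members' values was not tested.

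Results of this comparison therefore depend on how much each library counts. With limma's library quality weights, which gave knockout libraries 1 to 4 weights of 0.0817, 0.129, 3.20 and 7.76, 8 members passed, 7 higher and 1 (Hk1) lower, beside 59.4% of genes. With the pair of libraries per group lowest in T-cell, NK-cell and myeloid markers, which keeps knockout libraries 3 and 4, 9 members passed, 8 higher and Hk1 lower, beside 44.8% of genes. That fit was added after it had been seen that these libraries hold the high members, so it is no independent support. Leaving out both knockout libraries 1 and 2, against all 4 Eμ-Myc libraries, gave 8 members called by limma, 7 higher and Hk1 lower, beside 28.7% of genes. Leaving out 3 and 4 in their place gave 0, beside 4.21% of genes, and the log2 fold changes of Tpi1, Pgk1, Eno1 and Pkm were then -0.67, -0.45, -0.46 and -0.35 (limma adjusted p from 0.056 to 0.108). These pairs, too, were left out after their values were seen. Leaving out any 1 library left 0 members called. Without knockout library 3 the log2 fold changes of Pgk1, Eno1 and Pkm were -0.14, -0.07 and -0.05, and without library 1 those of Pgk1, Eno1 and Pkm were 0.22, 0.36 and 0.29.

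**Figure D4:**
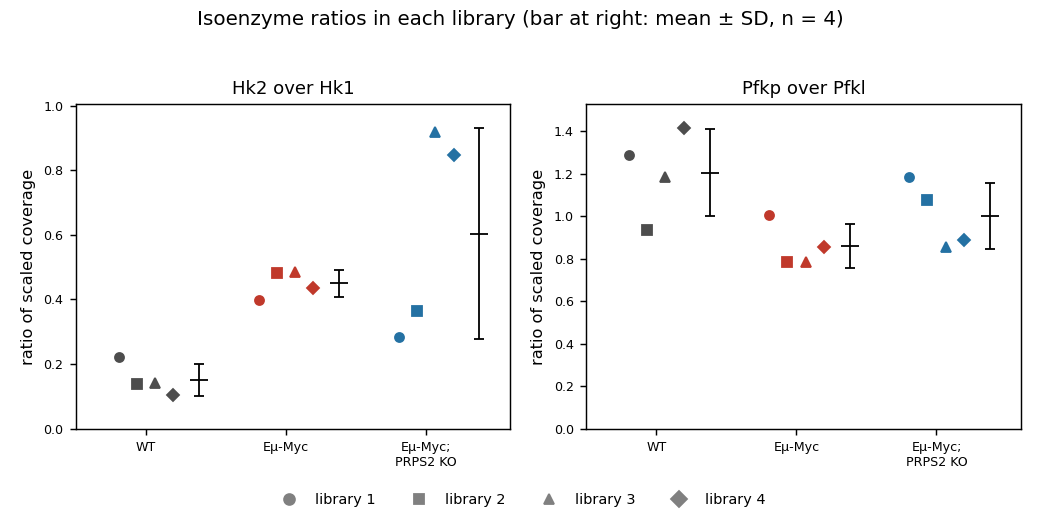
Ratio of scaled coverage of Hk2 to Hk1 (left) and Pfkp to Pfkl (right) in each library, linear axes from 0; bars give the mean ± SD of 4 libraries. The Hk2 to Hk1 ratio is above every WT value in all Eμ-Myc and knockout libraries, and knockout libraries 3 and 4 are at 0.918 and 0.848.

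The Hk2 to Hk1 ratio of the knockout libraries was 0.282, 0.365, 0.918 and 0.848, so libraries 1 and 2 were below the Eμ-Myc range (0.398 to 0.485) and the others above it. The difference from Eμ-Myc in mean log2 ratio was 0.24 (exact permutation p 0.51, adjusted 0.51). It turned to -0.018 without knockout library 3. Against WT the difference was 1.84, with every knockout library above every WT library (exact permutation p 0.0286, the smallest possible, adjusted 0.0857), and it did not pass. As in Eμ-Myc against WT, the smallest possible p passes only if most of the ratio tests reach it, so this too says little.

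The third comparison set the knockout group against WT and shares its WT libraries with the first. Tpi1 (3.20-fold), Pgk1 (2.08-fold) and Hk2 (1.89-fold) passed as higher and no member passed as lower. That is 3 of 10, a share close to the 29.3% of 12692 genes tested that passed, 19.7% as higher and 9.6% as lower. The median log2 fold change was 0.60 over the members and -0.01 over all genes. The log2 fold change of Tpi1 was 1.68 (SE 0.35, limma adjusted p 0.020), and all its knockout libraries were above all its WT libraries, beside 22.2% of all genes tested. Pgk1 reached 1.05 (SE 0.30, limma adjusted p 0.037) and Hk2 0.92 (SE 0.27, limma adjusted p 0.039), both with overlapping groups. Among members that did not pass, Hk1 was at -0.92 (limma adjusted p 0.054) and Eno1 at 0.96 (limma adjusted p 0.056), followed by Pkm at 0.72 (limma adjusted p 0.090). Hk1 passed under median-of-ratios scaling (limma adjusted p 0.048). Both Hk1 and Eno1 passed with a filter of 10 (limma adjusted p 0.041 and 0.044). With all 12 libraries in 1 fit Hk1, Eno1 and Pkm passed (limma adjusted p 0.018, 0.019 and 0.039). Hk1 was the other member whose groups did not overlap, with every knockout library below every WT library; 37.1% of all genes had groups without overlap, 14.9% as lower. Markers of other cells were lower as well: 4 of 5 platelet markers passed limma as lower (log2 fold changes from -2.38 to -1.27 over the 5). The T-cell markers had a median of -3.16 and the NK-cell markers one of -2.47, and none of these 14 passed after adjustment, while 7 of 8 and 2 of 6 had an unadjusted p under 0.05. Their part in the members' values was not tested.

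These calls changed with single libraries, and so did the number of calls over all genes. Without WT library 2, 3 or 4, or without knockout library 3 or 4, 0 of 10 members passed limma, beside 4.78% to 10% of all genes in place of 29.3%. In those 5 fits the log2 fold change of Tpi1 was 1.45 to 1.70 (adjusted p from 0.051 to 0.062), that of Pgk1 0.89 to 1.04 and that of Hk2 0.82 to 0.89. Pgk1 was also lost without WT library 1 (adjusted p 0.054) and Hk2 without knockout library 2 (adjusted p 0.054), which left 2 and 4 members called, beside 7.05% and 33.1% of all genes. Without knockout library 1, 7 members passed, 6 higher and Hk1 lower, beside 53.2% of genes. Without both knockout libraries 1 and 2 the count was 8, beside 70.1% of genes, and without both 3 and 4 it was 1, Tpi1 (log2 fold change 1.03, limma adjusted p 0.016), beside 10.6%. With only the pair of libraries per group lowest in T-cell, NK-cell and myeloid markers the count was 9, 8 higher and Hk1 lower, beside 79.3% of genes.

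Other genes of the pathway were taken from lists of related function. Among isoenzymes and the remaining steps (12 of 17 listed genes tested), 5 rose and 1 fell in Eμ-Myc against WT, a share called close to the 55.1% of all genes. One of the risers is Eno1b, whose coverage follows that of Eno1 in every library, so it is no separate observation. Besides Gapdh, Pgam1 and Pfkm, Eno3, the muscle-type enolase, was the one that fell (130.2 ± 6.995 to 85.0 ± 17.5, log2 fold change -0.63, limma adjusted p 0.0045). Against WT in the knockout group 3 rose and 2 fell, of 11 tested, beside 19.7% and 9.6% of all genes, with Bpgm, which makes 2,3-bisphosphoglycerate, at -0.68 (limma adjusted p 0.021) and Eno3 at -0.47 (limma adjusted p 0.042, and 0.056 with no filter on low values). Both kept their sign in every fit, and Bpgm in Eμ-Myc against WT did not pass (-0.36, limma adjusted p 0.056), but did without WT library 1 (adjusted p 0.028) or Eμ-Myc library 3 (0.0496), under median-of-ratios or total coverage scaling (0.032 and 0.014) and with a filter of 10 (0.0488).

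Regulators of flux, such as the enzymes that set fructose 2,6-bisphosphate, went both ways: 3 of 9 tested rose and 3 fell in Eμ-Myc, beside 30.4% and 24.7% of all genes. Pgp, a phosphatase that clears toxic side products of glycolysis, rose from 41.6 ± 6.04 to 82.3 ± 12.99 (log2 fold change 0.97, limma adjusted p 0.00043). Pfkfb4 fell from 114 ± 76.6 to 41.9 ± 18.4 (-1.35, limma adjusted p 0.027), with WT library 1 at 229 and the others from 68.4 to 82.2, and the call was lost without Eμ-Myc library 3 or 4 (adjusted p 0.078 and 0.080) and with all 12 libraries in 1 fit (limma adjusted p 0.124). Pfkfb3, the abundant inducible form, was at 318 ± 52.6 and 324 ± 54.1 and did not pass (0.03, limma adjusted p 0.89; the sign turned under both other scalings). In the knockout group against WT 1 of the 9, Pgp (0.90, limma adjusted p 0.036), passed, beside 29.3% of all genes.

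Genes of pyruvate use showed 8 of 15 higher and none lower in Eμ-Myc, beside 30.4% and 24.7% of all genes. Ldha, which turns pyruvate into lactate, rose from 1031 ± 179 to 2965 ± 433 (log2 fold change 1.53, limma adjusted p 4.33e-05). Subunits of pyruvate dehydrogenase, which feeds pyruvate to the citric acid cycle, were higher too, with Pdha1 at 0.85 (limma adjusted p 0.00042) and Dlat at 0.96 (limma adjusted p 9.35e-05). In the knockout group 5 of 15 passed against WT, a share close to the 29.3% of all genes, all higher, with Ldha among them (1.52, limma adjusted p 0.029). Ldha held 1551, 2047, 4835 and 4784 in knockout libraries 1 to 4, the same split as Tpi1, with Eμ-Myc libraries from 2321 to 3234.

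Of the genes for uptake of sugar and transport of lactate, 5 of 9 fell and 1 rose in Eμ-Myc, beside 24.7% and 30.4% of all genes. The riser was Slc16a1, the lactate and pyruvate carrier MCT1, from 11.6 ± 2.55 to 99.96 ± 13.2 (log2 fold change 3.07, limma adjusted p 2.04e-06). Slc2a1, the glucose carrier GLUT1, fell from 45.7 ± 11.8 to 21.3 ± 1.81 (-1.05, limma adjusted p 0.00066). Txnip, a restraint on glucose uptake, fell from 1168 ± 226 to 509 ± 96.3 (-1.20, limma adjusted p 0.00031). Against WT in the knockout group, Slc16a1 (2.97, limma adjusted p 0.010) rose, and Slc2a1 (-0.89, limma adjusted p 0.031) and Txnip (-1.36, limma adjusted p 0.049) fell, 3 calls of 9 beside 29.3% of all genes. Knockout libraries 1 to 4 held 43.5, 63.9, 162 and 163 for Slc16a1. They held 29.7, 29.8, 18.5 and 20.0 for Slc2a1, and 846, 748, 222 and 288 for Txnip. With knockout libraries 3 and 4 left out, Slc2a1 (-0.58, limma adjusted p 0.141) and Txnip (-0.54, limma adjusted p 0.104) did not pass, while Slc16a1 did. The call of Txnip was lost with no filter (limma adjusted p 0.060), with a pseudocount of 0.1 (0.0501) and with the replicate block (0.0514). That block also ended the calls of Bpgm, Eno3, Pgp and Ldha in the knockout group against WT (limma adjusted p from 0.054 to 0.073). All the calls named here for the knockout group against WT were lost in at least 1 fit that left out a library, except that of Slc16a1, whose adjusted p in limma then reached 0.042. Of the hypoxia targets outside glycolysis, 1 rose and 3 fell of 12 tested in Eμ-Myc, a smaller share than the 55.1% of all genes called, and 1 of 12 fell in the knockout group against WT, beside 29.3% of all genes called. Over these lists together 18 of 57 rose and 12 fell in Eμ-Myc, close to the shares of all genes, with a median log2 fold change of 0.03.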

How the data were processed

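Per the labels' protocols, polyadenylated RNA was made into libraries with a directional kit. For every library the authors deposited a file of coverage by gene symbol, a signal written to 1 decimal; 91.6% of values above 0 were not whole. That it is a mean per base was inferred from the values. The submitters' processing notes name mm10, DESeq and R 4.3.3, without their role. The aligner, the annotation, the counting and its use of strand are not given in the sources used here; 6 members overlap a gene on the other strand.

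The members and gene lists were chosen with earlier results of these data known. Scaling factors were unweighted trimmed means of log ratios (30% of ratios and 5% of means trimmed). Genes reaching a scaled coverage of 1 in 4 or more of the 8 libraries of a comparison were tested with limma 3.58.1 (R 4.3.3; trended, robust) on log2(scaled coverage + 0.5), which understates changes of low genes. Tests were two-sided, with Benjamini-Hochberg adjustment over all genes tested; called means adjusted p under 0.05. Ratios were tested by exact two-sided permutation over 70 arrangements, adjusted over 6 tests (scipy 1.17.1 with numpy 2.4.6, pandas 2.3.3 and Python 3.11.15; plots with matplotlib 3.10.9). The limma fit was tried on simulated data with independent noise for each gene. Those data hold no split of libraries shared by many genes, so they say nothing on the split of the knockout libraries. The labels call the replicates biological without naming animals.

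All 10 members, Prps2 and Myc are named. Of the other lists, genes with a mean of at least 8 in a group could be named. The choice among them was made with their values in view. The marker Prdm1 is an exception, with means of 4.40, 1.81 and 2.01 in WT, Eμ-Myc and the knockout group. The alternatives were scaling by total coverage or by median of ratios, a filter of 10 or none, pseudocounts of 0.1 and 2, all 12 libraries, a replicate block, quality weights, leaving out each library, and, added after the data were seen, 2 libraries per group and knockout libraries left out in pairs. Deviations of same-numbered knockout and Eμ-Myc libraries had correlations over all genes of 0.657, 0.192, 0.253 and 0.607, each above 0.1. The block treated equal numbers as pairs on the ground of these values alone. No label states a pairing, so whether the libraries are paired is unknown.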

Additional observations from a re-analysis of the deposited data

Results flagged for a closer look

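In 81 pairs of a named gene and a group of 4 libraries, 9 had 1 library whose gap to the nearest other was past Dixon's 95% critical value for its share of the group's range; chance flags about 1 in 20. WT library 1 was apart in 4 of them, with the high values of Hk2 (22.9), Hk3 (429.7), Pfkfb4 (229) and Txnip (1507). Eμ-Myc library 1 was apart in 3, with the low values of Tpi1 (376), Pkm (1245) and Ldha (2321). The others were Gpi1 in Eμ-Myc library 2 (417, high) and Pdha1 in WT library 4 (114, high). No knockout library was flagged, where the libraries stand in pairs.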

How the results depend on the processing

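In Eμ-Myc against WT the count of members called stayed between 5 and 9 under all settings other than leaving out a library, which gave 4 to 8 (main value 7, beside 55.1% of all genes). The share of all genes moved too, from 40% with no filter (6 members) to 69.2% with quality weights (9 members). The other lists gave 30 calls, 23 to 30 with a library left out and 23 to 39 under the other settings. In the knockout group against Eμ-Myc both counts were 0 except with quality weights (8 members and 40 others, beside 59.4% of all genes), with the added pair of libraries per group (9 and 30, beside 44.8%) and with knockout libraries 1 and 2 left out (8 and 21, beside 28.7%); with 3 and 4 left out they were 0 and 1; leaving out any 1 library gave 0 for both. The block, which treats equal numbers as pairs, also gave 0 there and changed no call of a member. Since no pairing is known, that 0 is no support for the main fit. In the knockout group against WT the members called were 3 and the others 15. Median-of-ratios scaling gave 4 members, with Hk1 added, beside 29.9% of all genes. A filter of 10 in every library gave 5 members, all 12 libraries in 1 fit 6 and 24 others, quality weights 9 and 51, the added pair 9 and 49, knockout libraries 1 and 2 left out 8 and 40, and 3 and 4 left out 1 and 4. From the filter of 10 on, the share of all genes called was, in place of 29.3%, 38.9%, 46.8%, 82.8%, 79.3%, 70.1% and 10.6% in that order; leaving out a library gave 0 to 7 and 1 to 29. With the replicate block 1 member (Tpi1) and 6 others passed, and 1863 genes in all against 3716. In Eμ-Myc against WT the block left 7 members called. The libraries share only a number in every comparison. In the knockout group against WT r was 0.398, -0.423, 0.137 and -0.064, and in Eμ-Myc against WT 0.230, -0.097, 0.264 and 0.135. Not every pair of these was above 0.1. Of 8 libraries 2 and 4 correlated best with their own number, and 4 of 8 did in the knockout group against Eμ-Myc, where every pair was above 0.1. The cause of these shifts was not tested, and the smaller fits also hold fewer libraries.

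Signs turned for results that did not pass with all libraries and the main settings. Pfkfb3 in Eμ-Myc against WT was -0.032 with median-of-ratios and -0.15 with total coverage scaling, and -0.085 to 0.16 with a library left out. In the knockout group against Eμ-Myc, Tpi1 was 0.00754 and 0.011 under these scalings. With quality weights Hk1, Tpi1 and Gapdh were -0.47, 0.56 and 0.36, and with the added pair -0.45, 0.55 and 0.35; all 6 values passed. With knockout libraries 1 and 2 left out they were -0.51, 0.63 and 0.33, and Gapdh did not pass. With 3 and 4 left out Gpi1, Pfkl, Pgk1, Eno1, Pkm and Pgam1 were -0.012, -0.25, -0.45, -0.46, -0.35 and -0.41, and Hk3 against WT was 0.19; none of these passed. With a library left out the ranges there were -0.14 to 0.24 for Hk1, -0.25 to 0.26 for Tpi1, -0.16 to 0.13 for Gapdh, -0.14 to 0.22 for Pgk1, -0.074 to 0.36 for Eno1, -0.048 to 0.29 for Pkm, -0.022 to 0.16 for Aldoa, -0.10 to 0.28 for Pgam1 and -0.018 to 0.54 for the Hk2 to Hk1 ratio. With 3 against 4 libraries the exact test of a ratio cannot go below 0.0571, so those fits say nothing on its stability. Depth in reads is unknown, and the spread of 4 libraries sets the precision.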
